A study of Mus musculus with 24 samples.

Results

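Uteri lacking the progesterone receptor (PRKO) were compared with wild-type (WT) uteri in the absence of added hormone. The comparison takes the 6 PRKO arrays and the 6 WT arrays from vehicle-treated mice, 12 of the study's 24 arrays, chosen by genotype, treatment and time as the sample titles give them. The PRKO vehicle arrays are 3 from 4 h and 3 from 40 h, and the WT vehicle arrays are likewise 3 from 4 h and 3 from 40 h. All mice, whatever their genotype, were ovariectomized at 6 weeks of age and injected 2 weeks later, so neither genotype had ovaries to make progesterone and estrogen. Vehicle was sesame oil. The 4 h uteri were taken 4 h after 1 injection, and the 40 h uteri 4 h after the last of 4 injections given 12 h apart. The other 12 arrays carry the same genotypes and times after progesterone (P4, 1 mg per mouse in sesame oil). They are used here as a second look at the same genes and in the shared estimate of the spread between arrays. RNA of 5 mice was pooled for each genotype and treatment, and the labels name neither the mutant allele nor whether the 3 arrays of a group hold separate pools. P-values therefore measure the spread between arrays, which may be technical.

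The progesterone receptor, encoded by Pgr, is a nuclear receptor that binds DNA once it is occupied by progesterone. In the uterus it is made in the epithelium, the stroma and the muscle wall, and it is best known for opposing estrogen-driven growth of the epithelium and for preparing the stroma for implantation. Its own expression in the uterus is raised by estrogen. With the ovaries removed and only oil injected, a difference between the genotypes is a difference in baseline and not in the response to an injected hormone.

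Signals are Affymetrix intensities on a linear scale, with each array brought to the same trimmed mean. Differences are PRKO minus WT on the scale of log2(signal + 32), averaged over both times and given ± standard error, and they understate the change of dim genes. Called means an adjusted p below 0.05 in limma over all 12422 tested probe sets. Array medians of the deposited values lay between 323.2 and 342.6, and precision is bounded by having 3 arrays in each group. Markers of the tissue were set against the median of all probe set signals on the vehicle arrays. Above it lay 24 of 29 measured stroma markers, 21 of 31 epithelium markers, 15 of 17 smooth muscle markers and 16 of 22 endothelial markers. So did 17 of 22 adipose markers. Each marker gene was read by its brightest probe set, which favours a place above that median. The ratio of 3' to 5' Gapdh signal, a sign of RNA quality, lay between 1.338 and 1.476 on the PRKO arrays and between 1.266 and 3.675 on the WT arrays, where the 3.675 belongs to WT vehicle 4 h replicate 2. The same ratio of beta-actin did not set that array apart: it was 1.416 there, while the PRKO arrays lay between 1.196 and 1.616 and the highest, 1.963, was WT vehicle 4 h replicate 1.

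Pgr itself was read by 1 probe set of low signal. It gave 121.3, 130.3 and 126.4 in PRKO uteri at 4 h against 140.1, 149.1 and 144.9 in WT uteri. At 40 h it gave 119.8, 139.0 and 129.6 in PRKO uteri against 154.7, 128.3 and 157.3 in WT uteri. The PRKO arrays were lower at 4 h without overlap, the groups overlapped at 40 h, and the pooled difference of −0.15 ± 0.06 was not called (limma adjusted p = 0.614). The labels do not place its probes against the part of Pgr that was disrupted, and the value therefore cannot serve as a check of genotype.

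Of the 12422 probe sets, 55 were called (0.443%), 31 of them higher in PRKO uteri (0.25%) and 24 lower (0.193%). They named 50 single genes, 29 higher and 21 lower, besides 1 probe set that names several genes and 2 that name none. The differences were modest, with a median absolute value of 0.46 among the called, while the median over all probe sets was 0.00. The largest losses were the histamine-forming enzyme Hdc, the sulfotransferase Sult1d1, the endocytic receptor Lrp2 and the metallothionein Mt2, and the largest gains were the cadherin Cdh16 and the transcription factor Mycn. All 55 had the same sign at both times, which their choice by the mean of both times on the same arrays largely sets. At an unadjusted p below 0.05, 696 probe sets passed where 621.1 would by chance. The calls rest in part on the spread shared by all 24 arrays: with the 12 vehicle arrays fitted alone, 15 probe sets were called, 9 higher and 6 lower. The 9 were Cdh16, Mycn, Cxcl14, Pclaf, Ctnnd2, Top2a, Plat, Dtl and Ect2. The 6 were Hdc, Sult1d1, Lrp2, Mt2, Pfkfb3 and a probe set that names no single gene. The other 40 of the 55 lost their call in that fit. Without the WT vehicle 4 h replicate 2 array, 68 were called, 44 of the 55 among them.

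**Figure D1:**
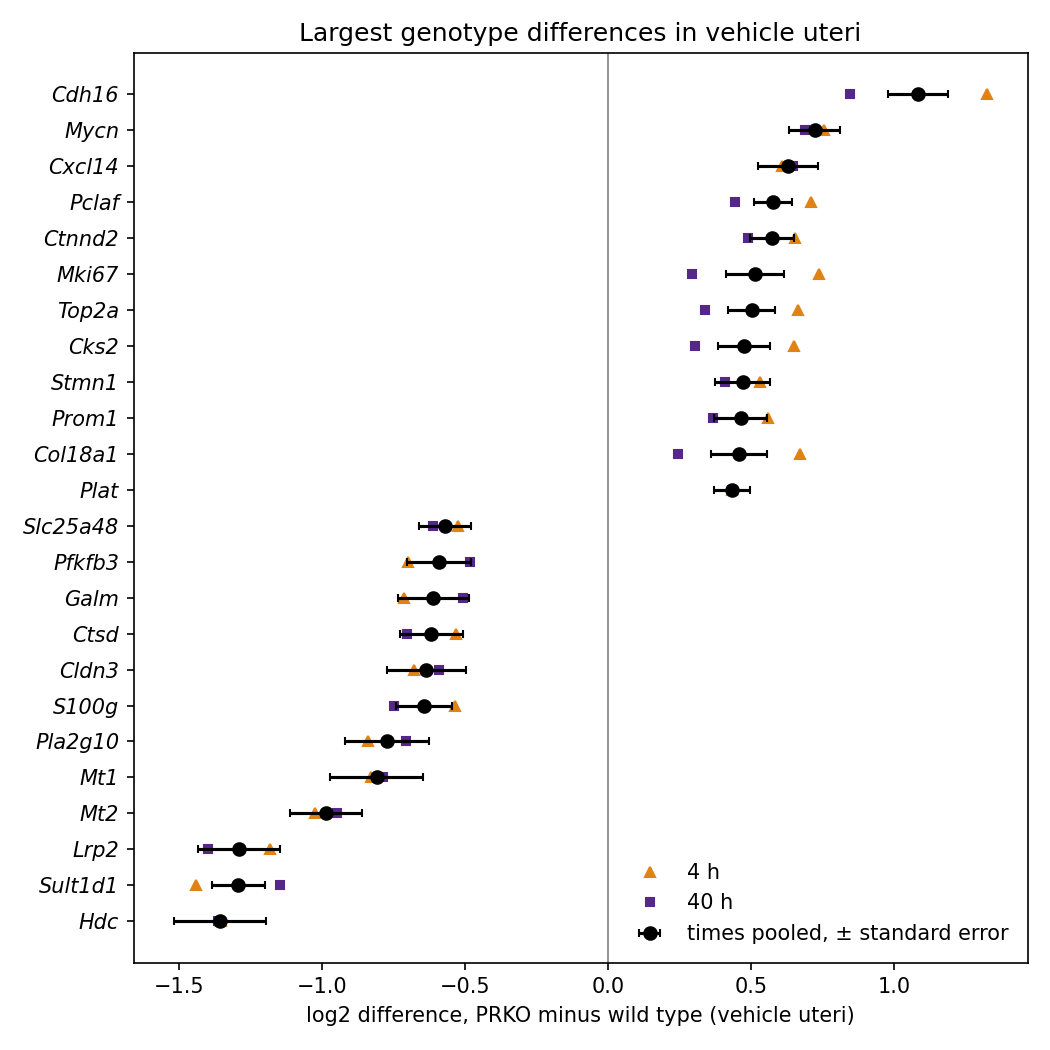
Log2 difference, PRKO minus wild type, of the 12 highest and the 12 lowest called genes, with the pooled difference and its standard error in black, the 4 h difference as orange triangles and the 40 h difference as purple squares. The genes were chosen with 1 sign at both times, so each lies on the same side of 0 at both, from Cdh16 at 1.08 to Hdc at −1.36.

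Hdc, Sult1d1 and Lrp2 had the largest called losses. Hdc makes histamine from histidine and is known from mast cells and, in the mouse uterus, from the epithelium. It gave 574.5, 411.6 and 427.3 in PRKO uteri at 4 h against 1476, 876.6 and 1464 in WT uteri, and 468.6, 507.2 and 323.8 in PRKO uteri at 40 h against 1683, 1094 and 812.5 in WT uteri. Every PRKO array lay below every WT array. The difference was −1.36 ± 0.16, or 2.56-fold lower after the offset (limma adjusted p = 7.62e-05). In bulk tissue, fewer cells of a type and less RNA per cell cannot be told apart. The other 15 measured mast cell markers were not called in either direction, and the mean log2 signal of the 16, Hdc included, was lower by 0.10 (exact permutation p = 0.005, the smallest that 400 arrangements allow, and 0.075 adjusted over 15 scores). Without Hdc that score, an alternative added after the values were seen, differed by −0.02 (exact permutation p = 0.535).

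Sult1d1 is a cytosolic enzyme that joins sulfate to small phenols and amines. It gave 148.5, 128.4 and 183.9 in PRKO uteri at 4 h against 507.2, 443.0 and 454.0 in WT uteri. At 40 h it gave 156.7, 166.2 and 160.3 in PRKO uteri against 337.8, 432.4 and 421.7 in WT uteri. The PRKO arrays were close to one another and all below the WT arrays. The difference of −1.29 ± 0.09, or 2.45-fold lower, had the smallest adjusted p of the comparison (limma, 5.18e-08). Lrp2 encodes megalin, a large receptor that takes up vitamin carriers and hormone-binding proteins at the apical face of epithelia. Its signal was 171.9, 152.1 and 119.1 in PRKO uteri at 4 h against 358.5, 266.9 and 535.1 in WT uteri, and 143.5, 166.9 and 133.5 in PRKO uteri at 40 h against 654.8, 382.6 and 339.2 in WT uteri. Again no PRKO array reached the lowest WT array, though the WT arrays spread more widely. The difference was −1.29 ± 0.14, or 2.45-fold lower (limma adjusted p = 4.44e-05).

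**Figure D2:**
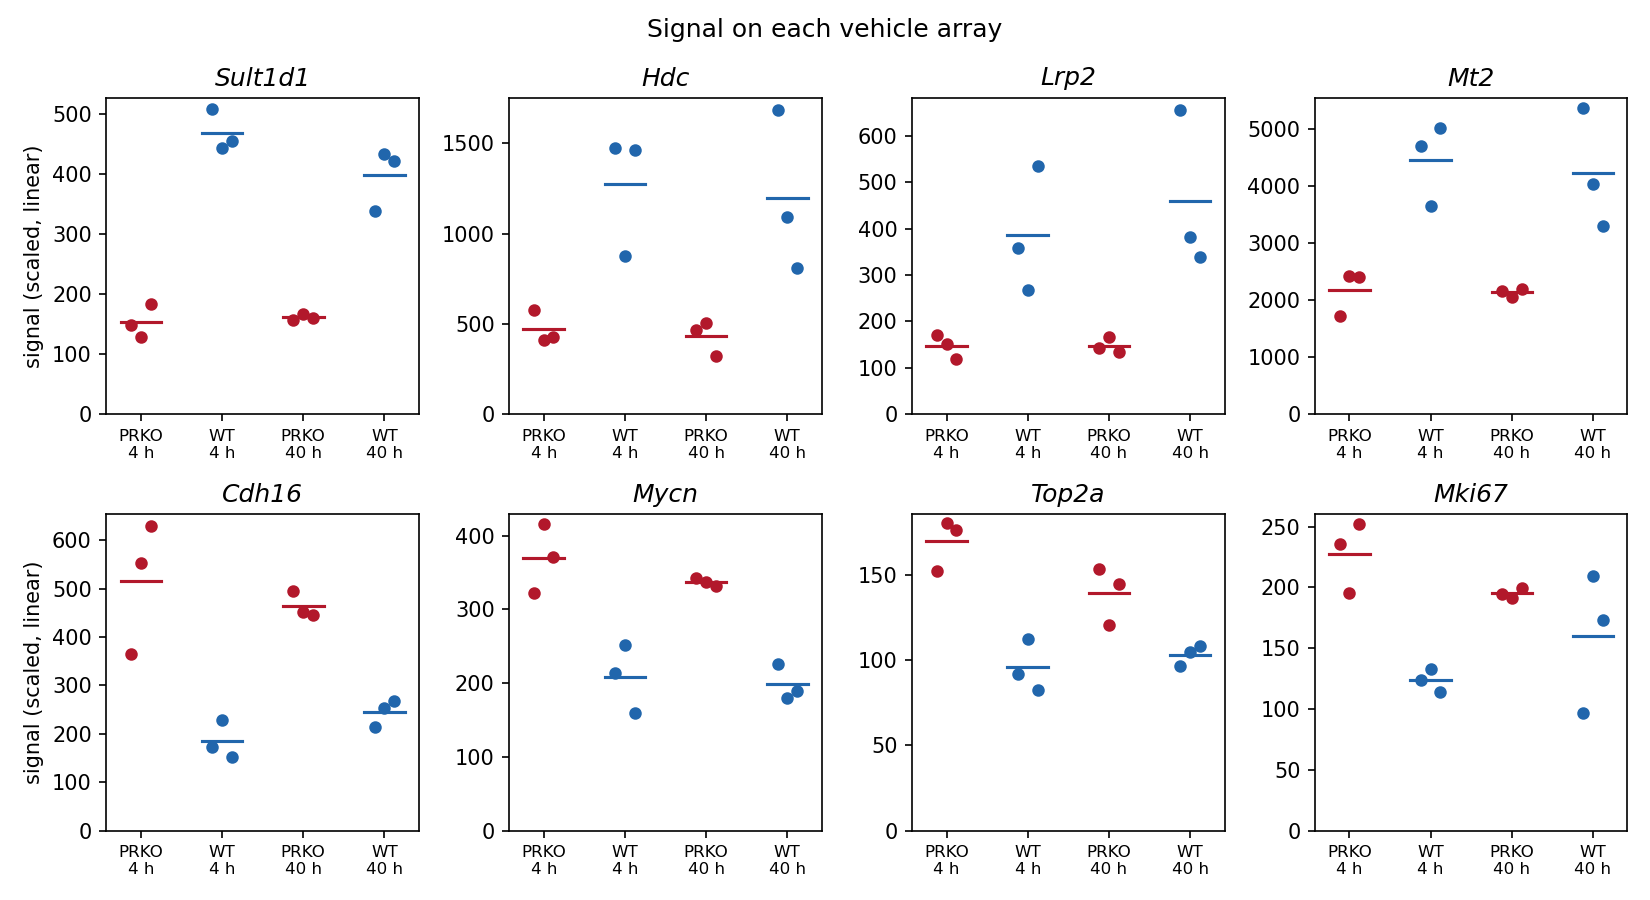
Scaled linear signal of 8 genes on each vehicle array, in red for PRKO and blue for wild type, with the group mean as a bar. The 4 genes of the upper row lie lower in PRKO uteri and the 4 of the lower row higher, and only Mki67 at 40 h shows the groups overlapping.

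Of 4 measured metallothioneins, Mt1 and Mt2 fell, while Mt3 (−0.11 ± 0.04) and Mt4 (0.04 ± 0.06) were not called (limma adjusted p = 0.651 and 0.999). These small proteins bind zinc and copper, and their genes answer to metals, to glucocorticoids and to stress. Mt2 gave 1715, 2424 and 2409 in PRKO uteri at 4 h against 4697, 3651 and 5015 in WT uteri, and 2165, 2061 and 2191 in PRKO uteri at 40 h against 5362, 4029 and 3302 in WT uteri. No PRKO array overlapped the WT arrays, and the difference was −0.98 ± 0.13 (limma adjusted p = 0.000199). Mt1 had a lowest, median and highest signal of 992.9, 1341 and 1853 over 6 PRKO arrays against 1758, 2453 and 3050 over 6 WT arrays. Its groups were apart within each time but overlapped across times, with a difference of −0.81 ± 0.16 (limma adjusted p = 0.0203). Leaving out any of 5 single arrays (PRKO 4 h replicate 1, PRKO 40 h replicates 2 and 3, WT 4 h replicate 3, WT 40 h replicate 1) ended the call of Mt1, at adjusted p of 0.0523 to 0.0792. The coding sequences of the metallothioneins are alike, and whether their probes read each other's RNA was not tested. The zinc importer Slc39a4 was lower as well, at a lowest, median and highest of 797.6, 972.4 and 1096 in PRKO uteri against 1174, 1313 and 1824 in WT uteri, with no overlap (−0.49 ± 0.10, limma adjusted p = 0.0173). Leaving out PRKO 40 h replicate 3, WT 40 h replicate 1 or WT 4 h replicate 3 ended the call of Slc39a4.

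The promoters of Mt1 and Mt2 are shown because these neighbours on chromosome 8 fell together. Each runs from 250 bases before to 50 bases after the gene's start, 5′ to 3′ on the plus strand of GRCm38.p6, from RefSeq, at chr8:94178839-94179138 for Mt1 and chr8:94172368-94172667 for Mt2. Capitals mark the core of the metal response element, TGCACNC or TGCGCNC on either strand, found 3 times for Mt1 and 4 times for Mt2.
Mt1: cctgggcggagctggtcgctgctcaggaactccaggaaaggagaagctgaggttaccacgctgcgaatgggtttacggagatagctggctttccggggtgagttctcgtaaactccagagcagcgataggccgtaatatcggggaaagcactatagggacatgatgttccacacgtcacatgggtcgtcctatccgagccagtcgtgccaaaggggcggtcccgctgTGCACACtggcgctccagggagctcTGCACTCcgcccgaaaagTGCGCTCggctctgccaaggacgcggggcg
Mt2: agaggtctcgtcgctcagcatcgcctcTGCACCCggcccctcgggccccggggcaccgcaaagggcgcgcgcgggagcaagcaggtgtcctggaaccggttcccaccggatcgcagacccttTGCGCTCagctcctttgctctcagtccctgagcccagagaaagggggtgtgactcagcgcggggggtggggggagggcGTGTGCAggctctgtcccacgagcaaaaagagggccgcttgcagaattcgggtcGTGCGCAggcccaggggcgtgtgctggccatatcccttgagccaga
That core stands in 25.7% of all 32851 promoters of this length. These were not limited to genes measured here and hold more than 1 promoter for some genes. Each called gene was counted by its first promoter, so the shares compare unlike sets. It stands in 7 of the 16 promoters found for genes lower in PRKO uteri (43.8%) and in 9 of the 23 found for genes higher in PRKO uteri (39.1%). A match of letters is a description and not a bound site. The steroid receptor half-site TGTTCT, on either strand, stands in 1 of those 16 (6.25%) and 1 of those 23 (4.35%), against 19% of all promoters.

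The other large losses belonged to genes of varied roles. Pla2g10, a secreted phospholipase, had a lowest, median and highest signal of 274.7, 314.8 and 409.9 in PRKO uteri against 359.2, 535.5 and 898.8 in WT uteri (−0.77 ± 0.15, limma adjusted p = 0.0168). It lost its call without PRKO 40 h replicate 1 (limma adjusted p = 0.0505). S100g, a calcium-binding protein of absorptive epithelia that estrogen is known to raise in the uterus, was called at both its probe sets. The brighter gave 353.7, 412.7 and 444.3 in PRKO uteri against 433.2, 663.9 and 872.4 in WT uteri (−0.59 ± 0.12, limma adjusted p = 0.0203), and the dimmer differed by −0.64 ± 0.10. At the brighter probe set of S100g the groups overlapped at 4 h and were apart at 40 h. Leaving out any of 5 single arrays (PRKO 40 h replicates 1 and 3, WT 40 h replicates 1 and 2, PRKO 4 h replicate 3) ended that probe set's call, and no single array ended the dimmer one's. The lysosomal protease Ctsd was bright and lower, at 3482, 3910 and 4268 in PRKO uteri against 3922, 6090 and 8265 in WT uteri (−0.62 ± 0.11, limma adjusted p = 0.00938). The WT vehicle 4 h replicate 2 array, the one with the high Gapdh ratio, gave the 3922 and was the single WT array within the PRKO range. Pfkfb3, which makes the activator of glycolysis, gave 220.0, 236.6 and 250.4 in PRKO uteri against 296.8, 368.7 and 473.0 in WT uteri, with no overlap (−0.59 ± 0.11). The mitochondrial carrier Slc25a48 was also apart on all arrays, at 184.4, 215.2 and 265.8 in PRKO uteri against 278.3, 338.5 and 435.8 in WT uteri (−0.57 ± 0.09, limma adjusted p = 0.00301).

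For the tight junction gene Cldn3 and the sugar mutarotase Galm only some of a gene's probe sets were called. The called probe set of Cldn3 was the dimmer one, with a lowest, median and highest of 66.87, 72.3 and 120.9 in PRKO uteri against 109.3, 138.5 and 247.8 in WT uteri (−0.64 ± 0.14, limma adjusted p = 0.039). The brighter, at a mean signal of 2209, differed by −0.56 ± 0.13 and was not called (limma adjusted p = 0.0646). Leaving out any of 10 of the 12 arrays, all but WT 4 h replicate 1 and PRKO 4 h replicate 2, ended the call of Cldn3. Of the 6 probe sets of Galm, 2 were called (−0.61 ± 0.12 and −0.55 ± 0.12), and the other 4 lay between −0.51 and −0.02 with none called. Both called probe sets of Galm are of a kind designed against a family of sequences, as are those called for Cldn3, Atp1b1 and Erdr1. Leaving out single arrays ended the calls of the Galm probe sets in 8 and 11 of 12 cases. Smaller losses were called for the sodium pump subunit Atp1b1 (−0.53 ± 0.11), the potassium channel Kcnq1 (−0.32 ± 0.06), the ascorbate transporter Slc23a1 (−0.31 ± 0.06) and the homeodomain-only protein Hopx (−0.33 ± 0.06). Atp1b1 lost its call without any of 10 of the 12 arrays, all but WT 40 h replicate 3 and WT 4 h replicate 2, and its other probe set differed by 0.03. The remaining called losses that name a gene were Pdzk1ip1, Erdr1, Fez1 and Bex6, between −0.46 and −0.30, and another probe set differed by 0.16 for Erdr1 and by 0.07 for Fez1 without a call. Bex6 lost its call without PRKO 40 h replicate 3 or WT 40 h replicate 1. Single omissions ended the call of Slc23a1 in 7 of 12 cases, all but WT 40 h replicates 1 and 3, WT 4 h replicates 1 and 3 and PRKO 4 h replicate 2. They ended that of Pdzk1ip1 in 6, of Erdr1 in 7 and of Fez1 in 10, and those of Kcnq1 and Hopx in 0. Kcnq1 and Hopx did lose their calls with the 12 vehicle arrays fitted alone (limma adjusted p = 0.0844 and 0.148).

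In the other direction, Cdh16 rose most. It encodes a cadherin first known from kidney epithelium. Its signal was 366.0, 553.5 and 630.3 in PRKO uteri at 4 h against 172.6, 228.3 and 153.0 in WT uteri, and 495.6, 451.2 and 445.3 in PRKO uteri at 40 h against 213.9, 253.5 and 267.8 in WT uteri. The lowest PRKO array stood above the highest WT array, and the difference was 1.08 ± 0.10, or 2.12-fold (limma adjusted p = 6.58e-06). Mycn, a growth-promoting transcription factor of the MYC family, gave 322.2, 416.1 and 370.7 in PRKO uteri at 4 h against 213.3, 251.9 and 159.1 in WT uteri. At 40 h Mycn gave 342.3, 337.3 and 332.0 in PRKO uteri against 225.5, 179.4 and 189.3 in WT uteri. Here too the genotypes did not overlap, with a difference of 0.72 ± 0.09, or 1.65-fold (limma adjusted p = 0.000116). Cxcl14, a chemokine made by epithelia, gave 673.6, 772.4 and 501.5 in PRKO uteri at 4 h against 425.7, 472.9 and 338.3 in WT uteri, and 766.6, 748.4 and 643.3 in PRKO uteri at 40 h against 465.8, 416.0 and 459.1 in WT uteri. All 6 PRKO arrays lay above all 6 WT arrays (0.63 ± 0.11, limma adjusted p = 0.00562). For Cdh16, Mycn and Cxcl14 no omission of a single array and none of the other settings tried ended the call.

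The other gains also belonged to genes of varied roles. Ctnnd2, a catenin that binds cadherins, had a lowest, median and highest signal of 333.9, 372.2 and 418.4 in PRKO uteri against 185.7, 249.7 and 262.3 in WT uteri (0.57 ± 0.08, limma adjusted p = 0.00032). Plat, the tissue plasminogen activator, was bright, at 3909, 4183 and 4690 in PRKO uteri against 2806, 3143 and 3399 in WT uteri (0.43 ± 0.06, limma adjusted p = 0.000997). Neither gene's groups overlapped. Prom1, a membrane protein of epithelial protrusions and of stem cells, differed by 0.46 ± 0.09 (limma adjusted p = 0.0199), and its other probe set by 0.37. The collagen chain Col18a1 was called at 1 of its 5 probe sets (0.46 ± 0.10), the other 4 lying between −0.07 and 0.43. Leaving out any of 7 single arrays ended the call of Col18a1, at adjusted p of 0.0535 to 0.112: WT 40 h replicates 2 and 3, PRKO 40 h replicates 1 and 2, WT 4 h replicates 1 and 2, and PRKO 4 h replicate 3. Prom1 lost its call without any of 6: PRKO 40 h replicates 1 and 3, WT 40 h replicate 2, PRKO 4 h replicates 1 and 3, and WT 4 h replicate 3. Cftr, the chloride channel of secretory epithelia, gave 186.5, 200.6 and 223.5 in PRKO uteri against 131.7, 152.2 and 169.0 in WT uteri, with no overlap (0.37 ± 0.06, limma adjusted p = 0.00578). Its other 2 probe sets were dim and differed by −0.04 and −0.10. Smaller gains were called for the coagulation factor F5 (0.43 ± 0.08), the interleukin receptor Il18r1 (0.41 ± 0.08), the sialyltransferase St6galnac5 (0.37 ± 0.08), the ribonuclease Rnase1 (0.32 ± 0.07), the Wnt receptor Fzd6 (0.30 ± 0.06), Nsg2 (0.29 ± 0.06), the ciliary membrane protein Pkhd1 (0.26 ± 0.05) and the exocytosis protein Cadps (0.26 ± 0.05). Pkhd1, Rnase1 and Cadps were dim, with no PRKO array above 61.77. Leaving out PRKO 40 h replicate 3 or WT 40 h replicate 1 ended the call of Il18r1. Single omissions ended the call of Fzd6 and of Pkhd1 in 4 of 12 cases, of F5 in 5, of St6galnac5, Rnase1 and Nsg2 in 7 and of Cadps in 9.

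Among the gene lists, that of DNA replication and mitosis held the most called gains. Of 41 measured members of a list of cell cycle genes, 5 were called higher in PRKO uteri (Mki67, Top2a, Cks2, Stmn1 and Mcm3) and 0 lower, where over all 8251 genes 27 were called higher and 16 lower by their brightest probe set. The difference was above 0 for 35 of the 41, or 85.4%, against 52.1% of all genes, and the median was 0.12 against 0.00. In either direction, 20 of the 41 had an unadjusted p below 0.05 (limma), against 5.6% of all probe sets. As a level, the mean log2 signal of the 41 genes was 8.94 ± 0.05 in PRKO uteri at 4 h against 8.76 ± 0.04 in WT uteri, and 8.94 ± 0.01 in PRKO uteri at 40 h against 8.82 ± 0.03 in WT uteri (SD, n = 3 each). The lowest PRKO array, at 8.899, stood above the highest WT array, at 8.844. Without the WT vehicle 4 h replicate 2 array, 4 of the 41 were called. The count was 3 without any of PRKO 40 h replicate 3, WT 40 h replicate 1, PRKO 4 h replicate 3 or WT 4 h replicate 3, and 1 with the 12 vehicle arrays fitted alone, counts added after the values were seen.

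Top2a, the enzyme that untangles replicated chromosomes, gave 152.1, 180.7 and 176.5 in PRKO uteri at 4 h against 91.99, 112.6 and 82.51 in WT uteri, and 153.7, 120.7 and 144.5 in PRKO uteri at 40 h against 96.78, 104.5 and 108.4 in WT uteri. All PRKO arrays were above all WT arrays (0.50 ± 0.08, limma adjusted p = 0.00409). Mki67, the antigen that marks cycling cells, gave 235.4, 195.2 and 252.5 in PRKO uteri at 4 h against 123.8, 132.9 and 113.9 in WT uteri, but 194.6, 191.5 and 199.7 in PRKO uteri at 40 h against 97.07, 209.8 and 173.0 in WT uteri. The groups of Mki67 were apart at 4 h and overlapped at 40 h (0.51 ± 0.10, limma adjusted p = 0.0173). Leaving out PRKO 40 h replicate 3, PRKO 4 h replicate 3 or WT 4 h replicate 3 ended its call, at adjusted p of 0.0548 to 0.0593. Cks2, a subunit of cyclin-dependent kinases, gave a lowest, median and highest of 167.3, 194.7 and 252.6 in PRKO uteri against 116.1, 136.7 and 166.9 in WT uteri, which just did not overlap (0.48 ± 0.09, limma adjusted p = 0.017). It lost its call without WT 40 h replicate 1 or PRKO 4 h replicate 3. Mcm3, part of the replicative helicase, gave 521.1, 565.7 and 659.7 in PRKO uteri against 422.3, 434.9 and 494.8 in WT uteri, without overlap (0.34 ± 0.06, limma adjusted p = 0.00699). Stmn1, which destabilizes microtubules, differed by 0.47 ± 0.10 (limma adjusted p = 0.0253) with overlap at 4 h, and its other probe set by −0.02. Without any of 8 of the 12 arrays, all but WT 40 h replicates 2 and 3, WT 4 h replicate 1 and PRKO 4 h replicate 3, Stmn1 lost its call. The cyclin Ccnd1 showed the largest difference of the list, 0.55 ± 0.14, and was not called (limma adjusted p = 0.0835).

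**Figure D3:**
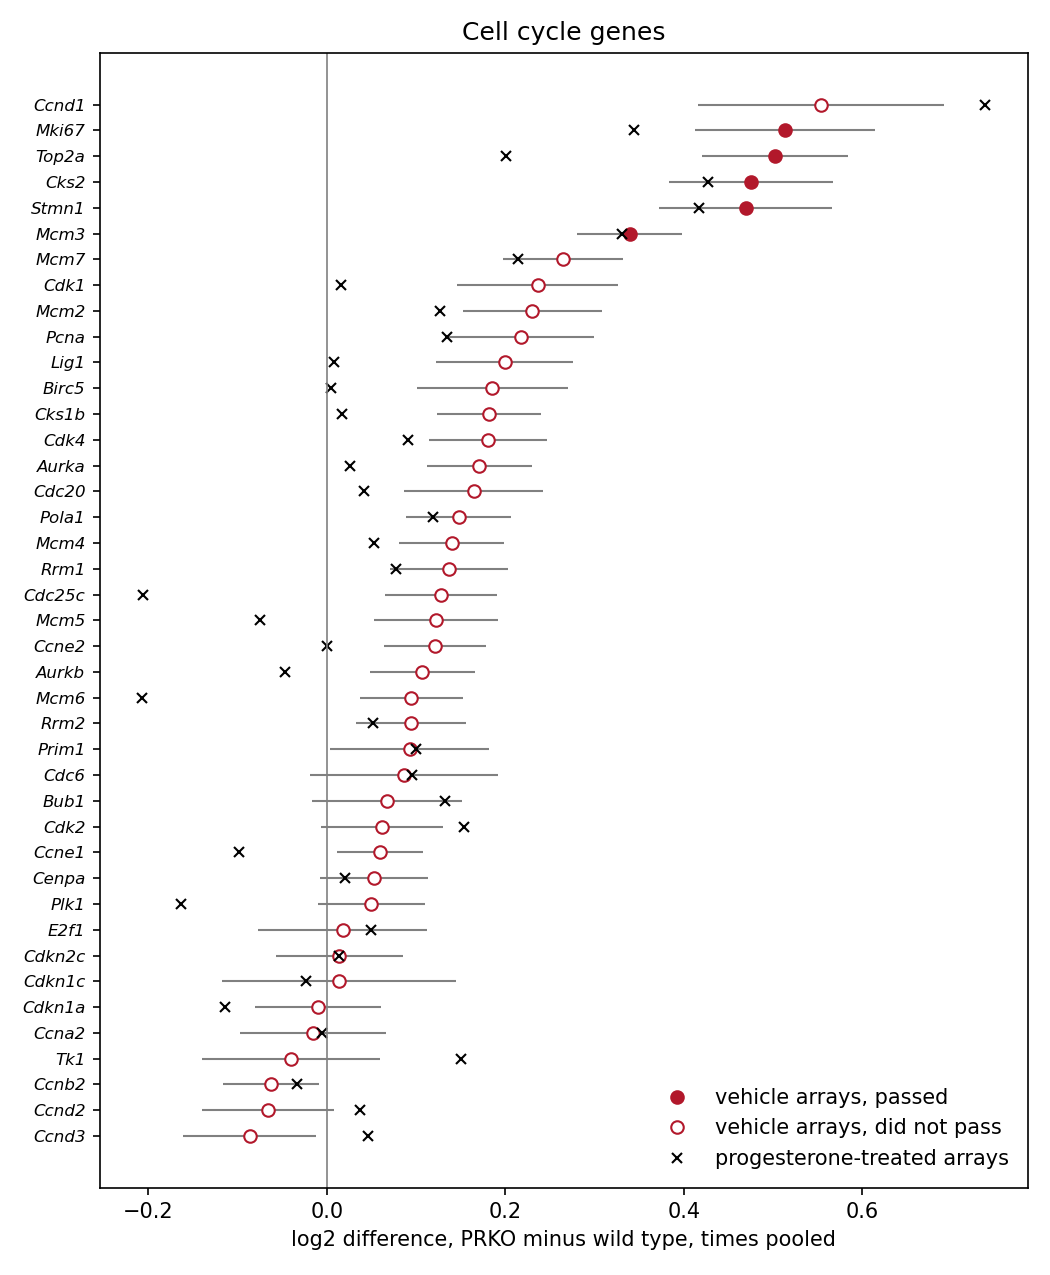
Log2 difference, PRKO minus wild type, of the 41 measured cell cycle genes on the vehicle arrays, as circles with the standard error (filled where called) and, as crosses, on the P4 arrays. Of the circles 35 lie right of 0, and the 5 filled ones belong to Mki67, Top2a, Cks2, Stmn1 and Mcm3.

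Further called genes that work in the same processes stood outside that list and were picked out after their values were seen. Pclaf, which binds the replication clamp, gave 194.8, 211.4 and 194.4 in PRKO uteri at 4 h against 123.5, 106.5 and 101.2 in WT uteri, and 205.2, 187.0 and 165.9 in PRKO uteri at 40 h against 112.7, 129.6 and 142.8 in WT uteri. No array overlapped (0.58 ± 0.07, limma adjusted p = 5.58e-05), although its other probe sets were near 0. Hells, a chromatin remodeller needed for DNA methylation, differed by 0.43 ± 0.08 at a dim signal. The replication licensing regulator Dtl differed by 0.37 ± 0.06, the cytokinesis factor Ect2 by 0.36 ± 0.06, the histone RNA binder Slbp by 0.34 ± 0.06, the spindle protein Nusap1 by 0.32 ± 0.07 and the DNA methylation factor Uhrf1 by 0.29 ± 0.07. Nusap1 and Uhrf1 lay just inside the threshold (limma adjusted p = 0.0468 and 0.0473), and single omissions ended their calls in 10 and 11 of 12 cases. No omission ended those of Hells, Dtl, Ect2 or Slbp. With the 12 vehicle arrays fitted alone, Dtl and Ect2 kept their calls, while Hells and Slbp lost theirs (limma adjusted p = 0.0631 each). Just outside the threshold were the water channel Aqp2 (−0.29, limma adjusted p = 0.0535) and the deiodinase Dio1 (0.28, limma adjusted p = 0.0579).

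The promoters of Top2a, Mki67 and Mcm3 are shown as those of called genes of this group. Each is read 5′ to 3′ on the minus strand of GRCm38.p6, from RefSeq, over the same 250 bases before and 50 after the start, at chr11:99024140-99024439, chr7:135716330-135716629 and chr1:20820263-20820562. Capitals mark the CCAAT box in all of them, the cell cycle homology region (CHR, TTTGAA) in Top2a and Mki67, and the E2F site (TTTCCCGC or TTTGGCGC) in Mcm3, each on either strand, so that ATTGG is also a CCAAT box.
Top2a: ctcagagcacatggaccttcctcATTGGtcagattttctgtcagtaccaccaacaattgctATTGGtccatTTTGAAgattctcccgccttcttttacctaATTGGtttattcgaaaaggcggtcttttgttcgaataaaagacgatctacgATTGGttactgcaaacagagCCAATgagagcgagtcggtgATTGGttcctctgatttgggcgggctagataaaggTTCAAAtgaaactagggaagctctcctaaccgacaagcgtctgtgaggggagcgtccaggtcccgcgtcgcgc
Mki67: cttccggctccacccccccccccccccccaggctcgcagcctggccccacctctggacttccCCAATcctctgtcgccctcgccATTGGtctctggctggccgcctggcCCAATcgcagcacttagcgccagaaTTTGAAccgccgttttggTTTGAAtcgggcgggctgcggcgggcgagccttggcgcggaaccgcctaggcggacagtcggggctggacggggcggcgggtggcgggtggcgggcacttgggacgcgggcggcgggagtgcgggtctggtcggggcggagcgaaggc
Mcm3: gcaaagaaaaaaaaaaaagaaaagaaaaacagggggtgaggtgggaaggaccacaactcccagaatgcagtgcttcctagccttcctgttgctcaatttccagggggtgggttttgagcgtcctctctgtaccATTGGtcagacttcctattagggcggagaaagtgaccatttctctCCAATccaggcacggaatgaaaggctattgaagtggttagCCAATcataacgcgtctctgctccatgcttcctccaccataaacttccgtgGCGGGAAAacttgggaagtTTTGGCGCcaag
Top2a holds 6 CCAAT boxes and 2 CHR letters, Mki67 3 and 2, and Mcm3 3 CCAAT boxes and 2 E2F sites. A CCAAT box stands in 15 of the 23 promoters found for genes higher in PRKO uteri (65.2%), in 5 of the 16 found for genes lower (31.2%) and in 37.4% of all promoters. The CHR letters stand in 6 of the 23 (26.1%), 1 of the 16 (6.25%) and 17.9% of all. The E2F letters stand in 5 of the 23 (21.7%), 1 of the 16 (6.25%) and 1.56% of all. Of the 50 called genes 39 had a promoter in the table. As for the metal response element, the share of all promoters is taken over an unlike set.

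Of 34 measured progesterone targets of the uterus, 1 was called lower on the vehicle arrays (Lrp2) and 0 higher, with a median difference of −0.02, where over all probe sets 0.193% were called lower and 0.25% higher. A single called member gives no reading of the list, in which 5 had an unadjusted p below 0.05 (limma). On the P4 arrays the same list gave 13 called members, 1 higher and 12 lower in PRKO uteri, where over all probe sets 1.39% were called higher and 1.77% lower. Members without a call on the vehicle arrays included the ligand Ihh (−0.06 ± 0.08), the retinoic acid hydroxylase Cyp26a1 (0.10 ± 0.11) and the homeobox gene Msx2 (0.51 ± 0.12, limma adjusted p = 0.0751). Fkbp5, a chaperone that steroid hormones raise, differed by −0.43 ± 0.14 (limma adjusted p = 0.383). Of 36 measured estrogen-regulated genes, 1 was called higher (Mcm3) and 1 lower (S100g). In either direction, 12 of the 36 had an unadjusted p below 0.05 (limma), against 5.6% of all probe sets. Clca1, an epithelial secretory protein, had a large difference of −1.20 ± 0.33 and the calcium-binding Calb1 one of −0.90 ± 0.21, and neither was called (limma adjusted p = 0.146 and 0.0593). Of 29 steroid receptors and their co-regulators none was called in limma and 5 had an unadjusted p below 0.05, where Esr1 differed by −0.02 ± 0.11 and Pgrmc1 by −0.07 ± 0.08.

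The counts for further lists stand against 0.25% of all probe sets called higher, 0.193% called lower and 5.6% at an unadjusted p below 0.05, and against 52.1% of all genes with a difference above 0. Most lists with a call had 1 called member in a direction. Of 21 glucocorticoid and stress response genes, 2 were called lower (Mt1 and Mt2), 2 had a difference above 0, and the median was −0.09. Of 28 genes of ion and water transport, 1 was called higher (Cftr) and 2 lower (S100g and Atp1b1). Of 30 matrix proteases and inhibitors, 1 was called higher (Plat) and 1 lower (Ctsd), of 37 Wnt pathway genes 1 higher (Fzd6), and of 44 collagen and matrix genes 1 higher (Col18a1). An unadjusted p below 0.05 (limma) was held by 4 of the 21, 6 of the 28, 3 of the 30, 5 of the 37 and 7 of the 44. Of 29 stroma markers none was called and 6 had an unadjusted p below 0.05 (limma). Of 31 epithelium markers none was called by its brightest probe set and 6 had an unadjusted p below 0.05, where Cldn4 differed by −0.66 ± 0.15 (limma adjusted p = 0.0605) and Cdh1 by −0.05 ± 0.07. Of 21 retinoid metabolism genes 16 had a difference above 0, 3 an unadjusted p below 0.05 and none was called, with Aldh1a3 at 0.35 ± 0.08 and Aldh1a1 at 0.35 ± 0.09 (limma adjusted p = 0.0736 and 0.0751). Of 14 MHC class II genes 2 had a difference above 0, 2 an unadjusted p below 0.05 and none was called, with Ciita, their master regulator, at −0.20 ± 0.08.

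The 15 array scores were used to see what else moved with genotype. They are the Gapdh and beta-actin ratios of 3' to 5' signal and the mean log2 signal of 13 lists of cell type markers. None passed after adjustment in exact permutation tests within each time, but no score could have passed by itself. The smallest p that 400 arrangements allow, 0.005, adjusts to 0.075 over 15 scores when a single score reaches it. The epithelium score differed by −0.04 (exact permutation p = 0.365), the smooth muscle score by −0.03 (exact permutation p = 0.285) and the adipose score by −0.05 (exact permutation p = 0.565). Individual PRKO arrays overlapped the WT arrays in each of these. By position, 0 of the 41 measured genes nearest to Pgr on chromosome 9, 16 before and 25 after it, was called, where 2 of all 437 measured genes of that chromosome were. With so few calls on the chromosome, 0 among 41 genes gives no reading of the region around Pgr. The called share of the other autosomes and chromosome X lay between 0.21% and 1.27% of their measured genes.

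The genotype difference was also taken at each time. At 4 h 23 probe sets were called (0.185%), 19 higher (0.153%) and 4 lower (0.0322%) in PRKO uteri. At 40 h 8 were (0.0644%), 2 higher (0.0161%) and 6 lower (0.0483%). At an unadjusted p below 0.05 (limma), 624 passed at 4 h and 382 at 40 h, where 621.1 would by chance. That fit gave both times the same median standard error, 0.102, though the 4 h arrays spread more widely. For WT the median log2 SD was 0.147 (4 h) against 0.0973 (40 h), and for PRKO 0.118 against 0.0816. With the 6 vehicle arrays of each time fitted alone, the order reversed: 274 passed at 4 h and 618 at 40 h. The counts therefore do not rank the times. Of the 55, 22 were also called in the 4 h comparison and 8 in the 40 h comparison. Among the 31 that were higher in PRKO uteri, 26 had the larger difference at 4 h. Among the 24 that were lower, 11 did. For Top2a the difference was 0.66 at 4 h and 0.34 at 40 h, for Mki67 0.74 and 0.29, for Cdh16 1.32 and 0.84, and for Lrp2 −1.18 and −1.40. The difference between the times was tested for every probe set in limma, and 0 of 12422 were called. An unadjusted p below 0.05 was reached by 200, where 621.1 would by chance. The 4 h count rests on single arrays: it was 3 without PRKO 4 h replicate 2 or WT 4 h replicate 3, 13 without PRKO 4 h replicate 3, and 14 without PRKO 4 h replicate 1 or WT 4 h replicate 2. The 40 h count was 1 without PRKO 40 h replicate 3, 2 without PRKO 40 h replicate 1 or WT 40 h replicate 2, 3 without PRKO 40 h replicate 2 and 4 without WT 40 h replicate 1. Within the 55, 45 had all 3 PRKO arrays on one side of all 3 WT arrays at both times, and 36 had all 6 apart from all 6, against 1.01% and 0.507% of all probe sets. Over all probe sets, 0.588% had the PRKO arrays above at both times and 0.427% below. The calls and these counts come from the same arrays.

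The 12 P4 arrays enter none of the group means compared here, so the 55 probe sets were read there too. Averaged over both times, all 55 had the same sign, which 52.7% of all probe sets did, and 42 were called in the same direction, 20 higher and 22 lower in PRKO uteri, where 3.16% of all probe sets were called, 1.39% higher and 1.77% lower. That is 76.4% of the 55 and 10.7% of the 393 called on the P4 arrays. The spread of both comparisons was estimated together. At single times the sign was opposite on the P4 arrays for 6 of the 55 at 4 h and for 2 at 40 h. At 4 h with P4, S100g averaged 336.1 in PRKO uteri against 253.9 in WT uteri at its brighter probe set and 86.27 in PRKO uteri against 62.27 in WT uteri at its dimmer one. Slc39a4 averaged 1099 in PRKO uteri against 883.8 in WT uteri at 4 h with P4, and Kcnq1 156.1 in PRKO uteri against 127.0 in WT uteri at 40 h with P4. The other opposite signs, of Bex6, Fzd6 and Il18r1 at 4 h and Dtl at 40 h, were within 0.04 of 0. Cdh16 differed by 1.05 ± 0.10 on the P4 arrays, with a lowest, median and highest of 392.0, 442.7 and 499.1 in PRKO uteri against 176.3, 185.4 and 240.8 in WT uteri. The genotypes did not overlap for Cdh16 with either treatment. Mt2 differed by −1.08 ± 0.13 and Mycn by 0.60 ± 0.09, again without overlap. Lrp2 differed by −2.06 ± 0.14 there, at 119.2, 155.0 and 183.6 in PRKO uteri against 505.7, 729.3 and 1054 in WT uteri, and Hdc by −1.81 ± 0.16. For neither was the change between treatments called (limma adjusted p = 0.177 for Lrp2 and 0.564 for Hdc). Of the 5 called cell cycle genes, Cks2, Stmn1 and Mcm3 were called on the P4 arrays, and Top2a (0.20 ± 0.08) and Mki67 (0.34 ± 0.10) were not, while the median of the 41 was 0.05. Their mean log2 signal with P4 was 8.898 in PRKO uteri against 8.787 in WT uteri at 4 h, and 8.885 against 8.836 at 40 h. The lowest PRKO P4 array, at 8.87, stood above the highest WT P4 array, at 8.861. The interaction of genotype and progesterone was called for 28 of all probe sets (0.225%), positive in 0.0725% and negative in 0.153%, and for 3 of the 55.

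**Figure D4:**
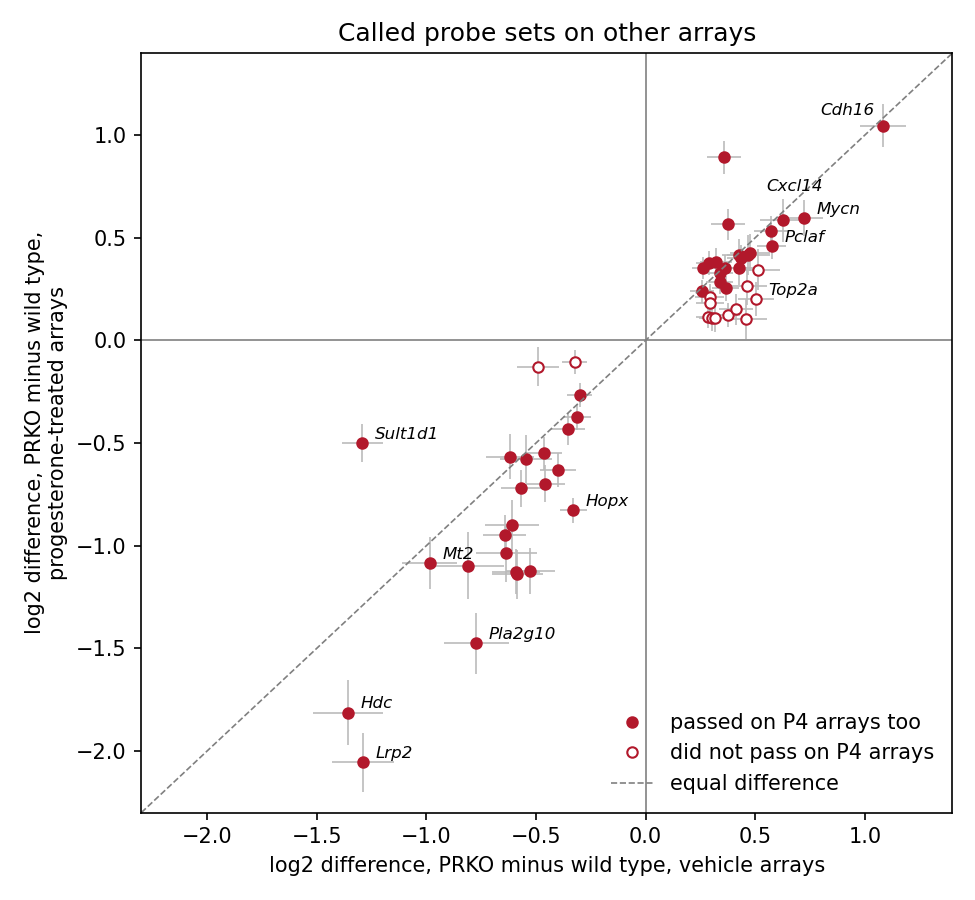
Log2 difference, PRKO minus wild type, of the 55 called probe sets on the 12 vehicle arrays (horizontal) and on the 12 P4 arrays (vertical), with standard errors, filled where the probe set was also called on the P4 arrays. Averaged over both times, all 55 lie in the quadrants of equal sign, 42 of them filled, with Sult1d1 above the line of equal difference and Lrp2 and Hopx below it.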

How the data were processed

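Signal on Affymetrix mouse arrays was measured for 8 groups of 3 arrays. The values the authors deposited are linear intensity, 1 per probe set and array, produced with MAS5 (the software from Affymetrix that summarizes probes), per the submitters' processing notes. Neither its settings nor how arrays were scaled to each other is given in the sources used here. Of 12488 probe sets, 66 controls were left out, and 35 of 299712 values were exactly 0. Platform annotation named a single gene for 10833 of the 12422 tested probe sets, several for 396 and none for 1193, which gave 8251 genes; 10817 of the 10833 matched RefSeq by identifier.

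Each array was scaled to a 2%-trimmed mean of 500 (factors 0.954 to 1.03), and log2(signal + 32) was taken with no filter on dim probe sets. limma 3.58.1 in R 4.3.3 fitted the 8 group means, with an intensity trend, two-sided tests and Benjamini-Hochberg adjustment over all probe sets. The pooled difference is the mean of the 4 h and 40 h differences, with 16 residual and 4.98 prior degrees of freedom and a median standard error of 0.0722. The procedure was tested on simulated data. Gene lists were described by 1 probe set per gene, that of highest signal. Array scores were tested by exact two-sided permutation within each time (400 arrangements) in Python 3.11.15.

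Named are Pgr, the 12 highest and 12 lowest called differences with 1 sign at both times, and up to 4 called members per list, or where none was called the 2 of largest difference. Other called genes, and list members named for contrast, were chosen after their values were seen. The comparison, its members and the lists were chosen with earlier results of these data known. Alternatives covered the offset, scaling, signal filters, arrays fitted, prior, array weights, covariates, the replicate block and each array left out. The labels do not say what a shared replicate number stands for, and the comparison was fitted without it.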

Additional observations from a re-analysis of the deposited data

Results flagged for a closer look

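For 3 of the 55 probe sets the genotype difference itself differed between the P4 and the vehicle arrays, by an interaction term in limma over all 12422 probe sets. For Sult1d1 it was smaller on the P4 arrays, by 0.79 (adjusted p = 0.011). At 4 h with P4 it gave 180.6, 227.2 and 235.5 in PRKO uteri against 183.4, 237.1 and 250.6 in WT uteri, which overlapped. At 40 h with P4 it gave 134.1, 195.1 and 165.0 in PRKO uteri against 343.8, 379.2 and 316.8 in WT uteri, which were apart, as the groups were at both times with vehicle. For Hopx it was larger on the P4 arrays, by −0.50 (adjusted p = 0.0181). Its signals with P4 were 633.8, 674.5 and 708.0 in PRKO uteri against 1063, 1221 and 1375 in WT uteri, and with vehicle 638.0, 658.1 and 735.1 in PRKO uteri against 756.5, 828.9 and 1004 in WT uteri. For a probe set that names no gene here, it was larger by 0.53 (adjusted p = 0.0472). Its signals with P4 were 740.5, 823.1 and 1026 in PRKO uteri against 387.7, 449.6 and 498.3 in WT uteri. On the vehicle arrays this probe set was called at an adjusted p of 0.0435 (limma), and single omissions ended that call in 10 of 12 cases. These interactions share the vehicle arrays with the comparison that chose the probe sets.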

How the results depend on the processing

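No direction of the 55 called probe sets reversed under any of 12 single-array omissions or 17 other settings, and 15 were called in every setting in which they were tested. The pooled count of 55 stayed within 1.5 times with an offset of 1 (56) or 100 (55), deposited scaling (63), quantile normalization (55), signals of at least 100 (48), no trend (56), a robust prior (56), an adipose covariate (55) and without both arrays of high Gapdh ratio (73). It was 33 at signals of at least 200, where fewer probe sets were tested, 15 with the 12 vehicle arrays fitted alone and 23 there with no interaction. It was 84 with array weights, 86 with the Gapdh ratio, 87 with the smooth muscle score and 128 with the epithelium score as a covariate, and the cause was not tested. Leaving out 1 array gave 32 to 68 pooled calls, among them 32 without PRKO 40 h replicate 3, 34 without WT 40 h replicate 1 and 36 without PRKO 40 h replicate 2. It gave 3 to 24 calls at 4 h and 1 to 9 at 40 h. With 12 arrays, 4 h gave 3 calls and 40 h gave 1, and with the 6 arrays of a time alone 1 and 2. The difference between times gave 0 calls in limma in every setting (unadjusted 125 to 512) except 1 without PRKO 4 h replicate 1 (0 to 1 over the omissions). A replicate block within time gave 115 pooled calls, all 55 among them, 34 at 4 h and 13 at 40 h. The labels state no pairing, and the arrays' deviations from their group means leave it unsettled: same-numbered PRKO and WT arrays correlated at 0.599, 0.455 and 0.0365 at 4 h and at 0.225, −0.071 and 0.188 at 40 h, differently numbered ones at −0.554 to 0.354, and not every array correlated best with its own number. The 5 called cell cycle genes became 2 at signals of at least 200, 1 in both fits of the 12 vehicle arrays, 8 with either the smooth muscle or the epithelium score, and 3 to 6 with 1 array left out. The P4 arrays fitted alone gave 355 calls, 296 shared with the 393. Dim genes are compressed by the offset, and with 3 arrays a group and pooled RNA the spread between mice is unknown.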
